A study of Mus musculus with 54 samples.

Results

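The genes described here encode the subunits of the glutamate receptors and of the GABA-A receptor in the mouse brain. The set was defined by symbol, with earlier results of these data known. It holds all genes named Gria, Grin, Grik, Grid or Grm followed by a subunit number, or Gabr followed by a subunit letter. This gave 45 of the 54232 genes in the count files. These are 4 AMPA, 7 NMDA, 5 kainate, 2 delta and 8 metabotropic glutamate receptor genes and 19 GABA-A receptor genes. The study treated mice with Cmpd60, a benzamide inhibitor of the histone deacetylases HDAC1 and HDAC2, and sequenced mRNA of whole tissue extracts. In the first experiment, naturally aged male BL6 mice of approximately 20 months received daily intraperitoneal injections of 22.5 mg/kg Cmpd60 (brain n = 6) or of its solvent as vehicle (brain n = 6) for 14 days, and kidney and heart were sequenced as well. In the second, male APPSWE-1349 mice of about 6 to 7 months on a BL6 background, which carry human amyloid precursor protein with the Swedish mutation as a transgene, and control littermates received the same injections for 14 days. The brain groups of this cohort were APPSWE vehicle (n = 5), APPSWE Cmpd60 (n = 4), littermate vehicle (n = 5) and littermate Cmpd60 (n = 5). The promoter that drives the transgene and the part of the brain that was taken are not given in the sources used here.

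Glutamate is the main excitatory transmitter of the brain. AMPA receptors, built from Gria subunits, carry fast excitation, NMDA receptors combine the obligatory subunit Grin1 with Grin2 or Grin3 subunits and admit calcium, kainate and delta receptors modulate synapses, and the Grm receptors signal through G proteins. GABA-A receptors are chloride channels that usually hold alpha, beta and gamma or delta subunits and carry fast inhibition, and their subunit mix differs between brain regions, with Gabra6 known as a marker of cerebellar granule cells.

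Promoter sequences were held for 30 of the 45 genes. The sequences of 3 are printed because these genes stand for 3 patterns of the aged brain, namely Gria2, which was higher with Cmpd60, Gabra6, which was lower, and Gabre, the only one of the 13 genes with p below 0.05 that kept p below 0.05 when cerebellar granule cell markers were added to the fit. Each runs 5′ to 3′ from 250 bases before to 50 bases after a transcript start in RefSeq on GRCm38.p6, all on the minus strand, with CG pairs, the sites of DNA methylation, in capitals. For Gria2 and Gabre this start lies inside the gene as RefSeq draws it, since other transcripts begin farther upstream. The Gria2 promoter lies at chr3:80802786-80803085, that of Gabra6 at chr11:42321023-42321322 and that of Gabre at chrX:72274672-72274971.
Gria2: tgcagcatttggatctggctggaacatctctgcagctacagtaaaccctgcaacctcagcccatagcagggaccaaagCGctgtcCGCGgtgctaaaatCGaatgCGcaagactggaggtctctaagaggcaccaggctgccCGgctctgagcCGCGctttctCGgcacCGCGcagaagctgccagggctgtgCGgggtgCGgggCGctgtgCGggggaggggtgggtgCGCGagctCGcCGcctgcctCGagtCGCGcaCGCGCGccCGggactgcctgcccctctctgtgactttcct
Gabra6: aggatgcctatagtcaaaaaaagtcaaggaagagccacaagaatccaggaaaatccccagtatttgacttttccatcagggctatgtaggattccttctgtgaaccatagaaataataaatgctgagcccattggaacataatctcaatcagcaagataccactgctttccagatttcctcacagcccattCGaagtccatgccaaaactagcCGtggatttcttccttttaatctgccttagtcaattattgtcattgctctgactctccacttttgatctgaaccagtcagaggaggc
Gabre: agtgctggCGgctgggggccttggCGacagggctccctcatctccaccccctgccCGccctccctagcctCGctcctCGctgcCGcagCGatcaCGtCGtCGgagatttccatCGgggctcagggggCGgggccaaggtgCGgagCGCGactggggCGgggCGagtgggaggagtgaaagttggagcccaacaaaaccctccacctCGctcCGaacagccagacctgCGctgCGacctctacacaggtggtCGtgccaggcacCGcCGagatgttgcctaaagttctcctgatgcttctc

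The Gria2 promoter held 26 CG pairs, more than 83.1% of the 32851 promoters in the table, and 65.7% G or C. The Gabre promoter was similar, with 24 CG pairs and 66.7% G or C. The Gabra6 promoter held 2 CG pairs and 42.0% G or C. Searched on both strands, the CCAAT box (CCAAT, in 37.4% of all promoters) and the nuclear factor I motif (TTGGCA, in 14.1%) were found in the Gabra6 window, and the GC box (GGGCGG, in 35.7%) in that of Gabre. The letters TATAAA (13.6% of promoters), TGACGTCA (1.79%) and CACGTG (7.15%) were in none of the 3 windows.

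In the aged brain, 3 of the 6 Cmpd60 libraries (33, 34 and 37) stood apart in their content of brain region markers, as described below, and the Cmpd60 libraries were deeper, with 29646412 to 57430113 counts on genes against 26402957 to 32344641 in vehicle. In the APPSWE cohort, libraries s140, s141, s146, s152 and s155 held counts for 15044 to 16577 genes, against 18518 to 24821 genes in the other 14, so results of this cohort are also given without these 5. Library s139 carries the label APPSWE vehicle but is headed Cmpd60 in the table of the study, and it was left out of every group. The mouse App gene did not mark the genotype, at 2087 to 2384 CPM (counts per 1000000 counts on genes, after scaling between libraries) in APPSWE vehicle and 1950 to 2268 CPM in littermate vehicle, so these counts do not check the human transgene. Marker genes of neurons were present in every aged brain library, at a summed 6546 to 7874 CPM. In such bulk extracts, fewer cells of a type and less RNA per cell cannot be told apart.

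In the aged vehicle brain, the AMPA subunits Gria2 and Gria1 led the glutamate receptor genes, at 82.8 and 81.7 CPM per kb of exon. Over the libraries, Gria2 stood at 576 ± 54.7 CPM and Gria1 at 494 ± 39.6 CPM (SD, n = 6). Per kb, the means of both lay within the range of Gria2 over its 6 libraries, so their order was not resolved. Among NMDA receptor genes the means were 61.0 CPM per kb for Grin2b, 50.5 for Grin1, 43.6 for Grin2a and 24.6 for Grin2c. The calcium-limiting subunit Grin3b was last at 0.39 CPM per kb. Per kb, the mean of Grin1 lay within the range of Grin2b over its libraries, so the order of Grin2b and Grin1 was not resolved. Grik5 led the kainate receptor genes at 42.5 CPM per kb and Grik4 was the lowest at 4.32. Grid1, a delta receptor, stood at 11.2 CPM per kb. Of the metabotropic receptors, Grm4 at 23.1 and Grm5 at 22.5 CPM per kb were close, the latter within the range of Grm4 over its libraries, and Grm6, the receptor of retinal bipolar cells, was at 0 counts in all 6 vehicle libraries, where 3 counts would correspond to at most 0.114 CPM. The lowest GABA-A subunit was Gabrp, with a single count over the 6 vehicle libraries, and Gabrr1 and Gabrr3, the rho subunits best known from retina, reached at most 8 and 5 counts in a vehicle library.

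**Figure D1:**
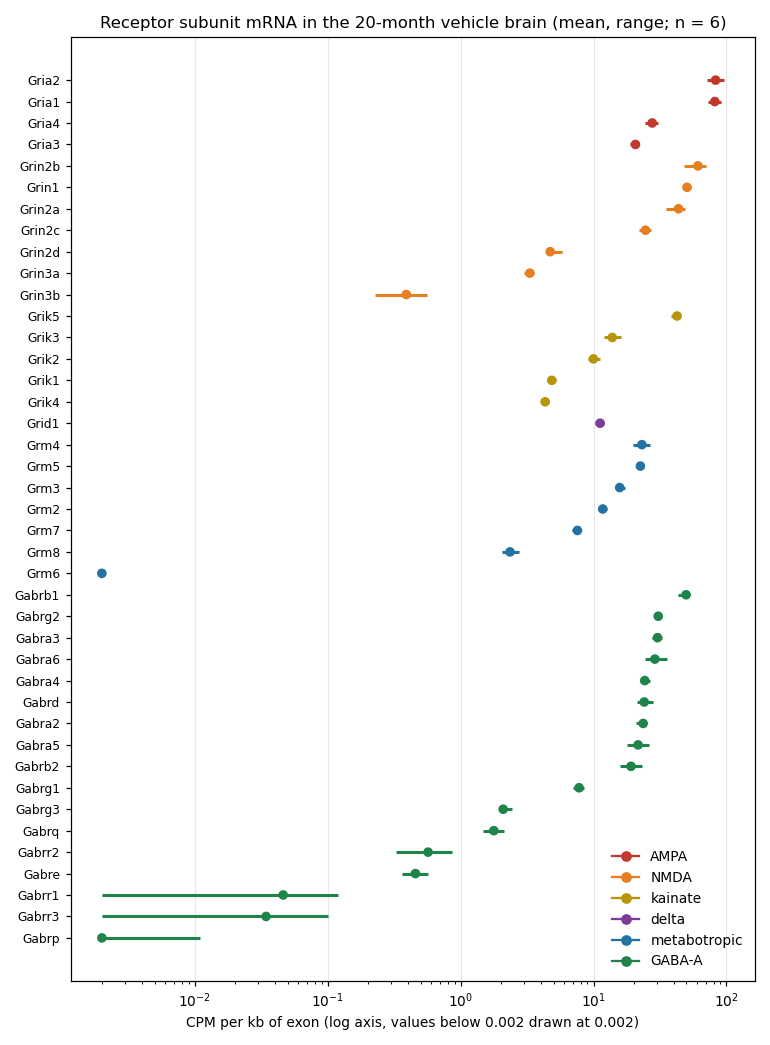
Level of 41 receptor subunit genes in the 20-month vehicle brain, as CPM per kb of exon on a log axis; points are means and lines the range over 6 libraries, and colours mark the receptor families. Gria2 and Gria1 lie near the top and Gabrr1, Gabrr3, Gabrp and Grm6 at the bottom.

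The first comparison asked how Cmpd60 altered receptor subunit mRNA in the aged brain. Of the 45 genes, 43 passed the filter on low counts (Gabrp and Grm6 did not), and 27 were higher and 16 lower with Cmpd60, by a median log2 difference of 0.06 against 0.01 over all genes tested, 51.8% of which were higher. Without Cmpd60 library 33 this median was 0.00228, and without vehicle library 30 it was 0.03. No member passed an adjusted p-value of 0.05 in edgeR's quasi-likelihood test with Benjamini-Hochberg adjustment, where 5 genes of 24438 did (0.0205%). By limma-voom 0 members and 2 genes in all were called. DESeq2 called 3 members, which were Gabre, Gria2 and Grm4, among 429 of the 24438 genes in all. At an unadjusted p below 0.05 stood 13 members, or 30.2% of those tested against 13.8% of all genes, of which 7 were higher (7.32% of all genes) and 6 lower (6.47%). At an unadjusted p below 0.01 stood 5 members, against 4.29% of all genes. Leaving out Cmpd60 library 37 or vehicle library 30 lowered the 13 to 8, with 12.4% and 11.7% of all genes below 0.05. Leaving out Cmpd60 library 36 raised the 5 to 12, with 5.25% of all genes below 0.01. Without vehicle library 29 Gria2 passed the adjusted threshold, as did 372 of 24262 genes in all. In no member were the 6 Cmpd60 libraries separated from the 6 vehicle libraries, a pattern that 0.925% of all genes showed.

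Among the AMPA receptor genes, 3 of 4 had an unadjusted p below 0.05. Gria2, the subunit whose edited form keeps calcium out of the channel, ranged from 497 over a median of 573 to 667 CPM in vehicle and from 583 over 709 to 852 CPM with Cmpd60. The log2 fold change was 0.29 (SE 0.08, adjusted p = 0.134 by edgeR's quasi-likelihood test). The groups overlapped, and the highest 3 libraries of all 12 were Cmpd60 libraries 33, 37 and 34. Gria3 showed the same order, with 186, 205 and 214 CPM (lowest, median, highest) in vehicle and 200, 241 and 297 CPM with Cmpd60, a log2 fold change of 0.25 (SE 0.08, adjusted p = 0.166 by edgeR). Gria4, by contrast, was lower, at 152, 175 and 192 CPM in vehicle and 142.3, 154.6 and 168.1 CPM with Cmpd60, with a log2 fold change of -0.15 (SE 0.06, adjusted p = 0.269 by edgeR). Its 3 lowest libraries were 34, 37 and 33.

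Of the 7 NMDA receptor genes, 4 were higher and 3 lower, and 3 had an unadjusted p below 0.05. Grin1, which every NMDA receptor contains, stood at 470, 484 and 525 CPM (lowest, median, highest) in vehicle and at 478, 535 and 574 CPM with Cmpd60, with a log2 fold change of 0.12 (SE 0.05, adjusted p = 0.326 by edgeR). Grin2c, the subunit typical of mature cerebellar granule cells, ranged from 111 to 136 CPM in vehicle with a median of 124 CPM. In the Cmpd60 group it stood at 72.4 CPM in library 33, 88.7 in 34 and 94.7 in 37, all below the vehicle range, and at 116 CPM in library 35, 137 in 36 and 117 in 38. The log2 fold change was -0.25 (SE 0.11, adjusted p = 0.329 by edgeR), and library 36 lay above the vehicle range. Without library 33 it was -0.16. Grin2d, an NMDA subunit of interneurons and midbrain, was at 25.7, 26.9 and 33.7 CPM in vehicle and at 19.6, 24.4 and 27.6 CPM with Cmpd60 (log2 fold change -0.18, SE 0.08, adjusted p = 0.357 by edgeR), and without vehicle library 31 the log2 fold change was -0.12. The kainate receptor genes spanned log2 fold changes of only -0.03 to 0.07, and neither they nor the delta receptor genes had an unadjusted p below 0.05 in edgeR.

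Among the metabotropic receptors, Grm4, a presynaptic receptor of granule cell terminals, ranged from 106 over a median of 122 to 141 CPM in vehicle. With Cmpd60 it stood at 64.5 CPM in library 33, 69.6 in 34 and 76.3 in 37, and at 111 CPM in 35, 114 in 36 and 104 in 38. The log2 fold change was -0.45 (SE 0.12, adjusted p = 0.144 by edgeR), with libraries 35 and 36 inside the vehicle range and library 38 just below it. Grm5, a postsynaptic receptor of the forebrain, was higher, at 167, 186 and 189 CPM in vehicle and 168, 204 and 269 CPM with Cmpd60, where the log2 fold change was 0.21 (SE 0.08, adjusted p = 0.267 by edgeR) and library 33 was the highest of all. Without it the log2 fold change was 0.13.

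Of the 18 GABA-A receptor genes tested, 14 were higher and 4 lower, and 4 had an unadjusted p below 0.05. Gabra6 ranged from 60.5 over a median of 69.2 to 88.6 CPM in vehicle. With Cmpd60 it stood at 29.8 CPM in library 33, 37.1 in 34 and 33.9 in 37, and at 60.9 CPM in 35, 70.4 in 36 and 69.5 in 38. The log2 fold change was -0.51 (SE 0.18, adjusted p = 0.24 by edgeR), and the last 3 libraries lay within the vehicle range while the first 3 lay below all 9 others. Gabre, the epsilon subunit found in a few neuron groups such as those of hypothalamus and brainstem, was scarce, at 1.73, 2.15 and 2.67 CPM (lowest, median, highest) in vehicle and 2.44, 3.21 and 3.69 CPM with Cmpd60, which rest on 47 to 76 and 88 to 152 counts per library. Its log2 fold change of 0.56 (SE 0.14, adjusted p = 0.115 by edgeR) was the largest among the 13 members, and only Cmpd60 library 38 lay within the vehicle range. Gabra2 stood at 49.8, 57.5 and 59.8 CPM in vehicle and at 55.1, 63.1 and 68.5 CPM with Cmpd60 (log2 fold change 0.15, SE 0.06, adjusted p = 0.309 by edgeR). Of the GABA-A genes tested, 14 had a p above 0.05.

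**Figure D2:**
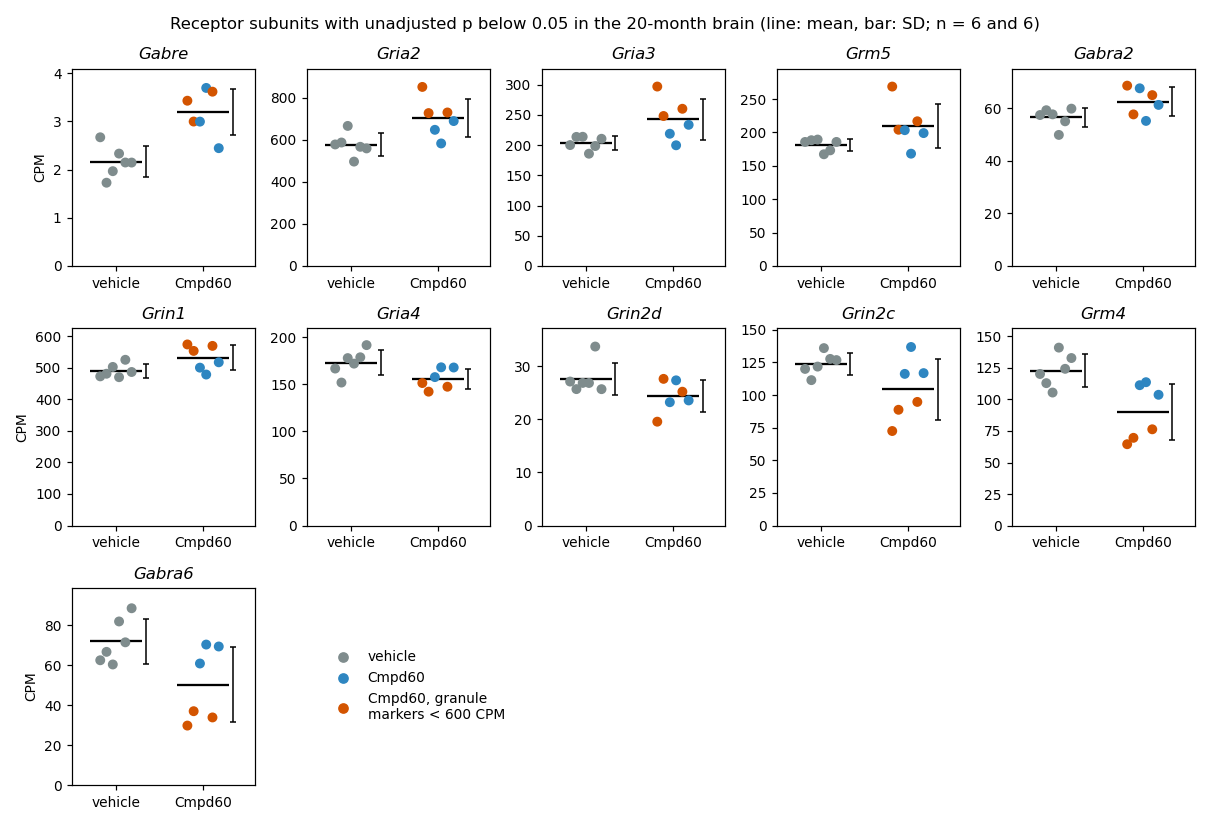
CPM of 11 receptor subunit genes with an unadjusted p below 0.05 in the 20-month brain, 1 point per library (n = 6 vehicle in grey, n = 6 Cmpd60 in blue or orange), with the mean as a line and the SD as a bar. Orange points are Cmpd60 libraries 33, 34 and 37, whose summed granule cell markers lie below 600 CPM; they are the lowest for Gabra6, Grm4 and Grin2c and the highest for Gria2 and Gria3.

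Markers of some brain regions moved with these subunits. The 8 markers of cerebellar granule cells, none of them a receptor gene, summed to 454 CPM in Cmpd60 library 33, 506 in 34 and 488 in 37, to 751 CPM in 35, 896 in 36 and 853 in 38, and to 752 to 1122 CPM in vehicle, and no marker was at 0. All 8 were lower with Cmpd60, 6 of them at an unadjusted p below 0.05 in edgeR, and of the Purkinje cell markers 5 of 6 were lower. Thalamus markers (6 of 6) and olfactory bulb markers (5 of 5) were also lower, 4 of each at an unadjusted p below 0.05. Cortex markers were higher in 7 of 7, none at an unadjusted p below 0.05, and summed to 515 to 585 CPM in libraries 33, 34 and 37 against 367 to 432 CPM in vehicle. Hippocampus markers were mixed, with 3 higher, 2 of them at an unadjusted p below 0.05, and 4 lower. Those of striatal medium spiny neurons were higher in 8 of 9, none at that p. Of all genes, 7.32% were higher and 6.47% lower at that p in edgeR. With the summed granule cell markers as a covariate, the log2 fold change was -0.02 (SE 0.06) for Gabra6, -0.12 (SE 0.07) for Grm4, 0.02 (SE 0.07) for Grin2c and 0.11 (SE 0.07) for Gria2. All 13 members came closer to 0 in that fit, 10 of them to under 50% of their value, and the median size over them went from 0.25 to 0.05. The 13 had been picked by p in these same libraries. The markers were themselves lower with Cmpd60, so by construction the fit takes out what moves with them. These values therefore do not tell what lowered or raised the members, which was not tested. The median log2 fold change over the 43 members went from 0.06 to -0.02 with this covariate and also to -0.02 without libraries 33, 34 and 37. Gabre kept 0.51 (SE 0.17, unadjusted p = 0.00881 in edgeR's test across all genes), and without libraries 33, 34 and 37 it was 0.48 (SE 0.18). The members below an unadjusted p of 0.05 then were 4 with the covariate, Gabre and, all lower, Gabra4, Gabrb2 and Grm3, and 5 without the 3 libraries, among them Gabre, Grm4, Gabrb2 and Grm3, where 8.43% and 8.67% of all genes reached that p. Gabrb2, a beta subunit common in the adult brain, had a log2 fold change of -0.07 without the covariate, -0.29 (SE 0.12, adjusted p = 0.512 by edgeR) with it and -0.32 (SE 0.09, adjusted p = 0.351 by edgeR) without the 3 libraries. Both settings and the genes they added were chosen after the data were seen.

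**Figure D3:**
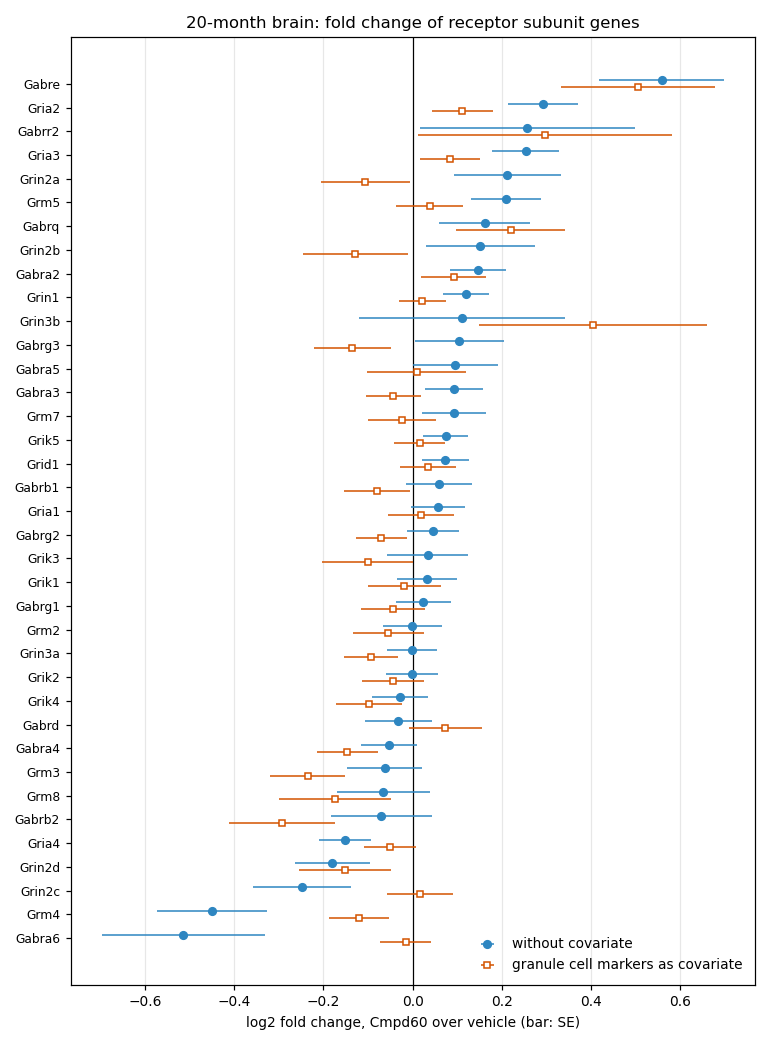
Log2 fold change of Cmpd60 over vehicle in the 20-month brain for 37 receptor subunit genes (blue circles), and with the summed granule cell markers as a covariate (orange squares), with SE as bars; Gabrr1 and Gabrr3, at a few counts per library, are not drawn. Gabra6, Grm4 and Grin2c move close to 0 with the covariate while Gabre stays at 0.51.

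**Figure D4:**
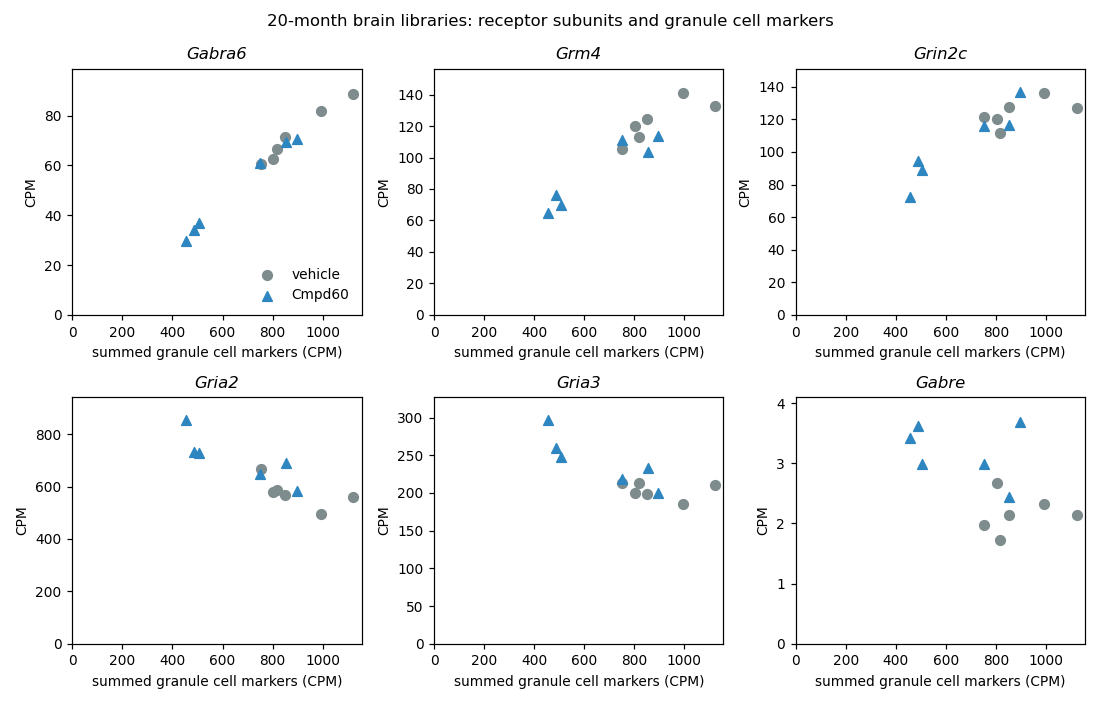
CPM of 6 receptor subunit genes against the summed CPM of 8 granule cell markers in the 12 libraries of the 20-month brain (grey circles vehicle, blue triangles Cmpd60). Gabra6, Grm4 and Grin2c are low and Gria2 and Gria3 high in the 3 Cmpd60 libraries at 454 to 506 CPM of markers, while Gabre is above most vehicle libraries across the range.

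The genes that work with these receptors were read from 5 lists, and in none did a gene pass an adjusted p of 0.05 in edgeR. Beside the counts below, 7.32% of all genes were higher and 6.47% lower at an unadjusted p below 0.05, and in 0.925% the groups did not overlap. Of 14 AMPA and kainate auxiliary subunits, 3 were higher and 0 lower at an unadjusted p below 0.05, led by Cacng3 (log2 fold change 0.21, SE 0.07) and Cnih3 (0.19, SE 0.08), which help AMPA receptors to the surface. Of 21 excitatory scaffold genes, 3 were higher and 1 lower. Camk2a, the kinase of forebrain excitatory synapses, stood at 1371 to 1679 CPM in vehicle and 1719 to 2537 CPM with Cmpd60, so that the groups did not overlap, with a log2 fold change of 0.39 (SE 0.09, adjusted p = 0.106 by edgeR), and libraries 33, 37 and 34 were again the highest. Shank3, a postsynaptic scaffold, was at -0.15 (SE 0.06). Of 10 inhibitory scaffold genes, 1 was higher and 2 lower at an unadjusted p below 0.05, with Shisa7, a GABA-A receptor auxiliary protein, at a log2 fold change of 0.29 (SE 0.09) and Lhfpl4 at -0.15 (SE 0.05). Of 16 genes for transmitter synthesis and transport, 3 were higher and 4 lower. Slc6a11, the GABA transporter GAT3 of astrocytes, stood at 269 to 354 CPM in vehicle and 220 to 266 CPM with Cmpd60 without overlap (log2 fold change -0.29, SE 0.07, adjusted p = 0.106 by edgeR), and Slc17a7, the vesicular glutamate transporter of cortex and cerebellum, was at 0.28 (SE 0.08). None of the 6 GABA-B and glycine receptor genes had an unadjusted p below 0.05, with Gabbr2 at 0.08 (SE 0.05) and Gabbr1 at -0.01 (SE 0.04).

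The APPSWE cohort served to compare the genotype and the Cmpd60 response in it. All comparisons of this cohort share groups, so their values are given side by side only. Between APPSWE and littermate mice on vehicle, 20 members were higher and 23 lower in APPSWE (48% of all genes were higher), with a median of -0.03 against -0.01 over all genes, which without littermate vehicle library s150 was 0.01. With edgeR's quasi-likelihood test, 0 members passed an adjusted p of 0.05 (0.00862% of all genes did), 1 had an unadjusted p below 0.05 (8.67% of all genes) and 0 one below 0.01 (1.74%), while DESeq2 and limma-voom also called 0 at the adjusted threshold. That 1 was Gabrr3, with 0 counts in all 5 APPSWE vehicle libraries and at most 7 in a littermate library, too few for a fold. Next came Grin1, at 460, 463, 487, 521 and 552 CPM in APPSWE vehicle and 484, 530, 538, 573 and 593 CPM in littermate vehicle. The log2 difference was -0.13 (SE 0.07, adjusted p = 0.662 by edgeR), and the groups overlapped. The 1 member below p 0.05 became 4 without APPSWE vehicle library s142, 3 without s144, 2 without littermate vehicle library s150, and 0 without APPSWE Cmpd60 library s147 or littermate Cmpd60 library s153. Of all genes, 10.5%, 8.78%, 8.02%, 7.95% and 7.72% did so in these fits, in that order.

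With Cmpd60 in APPSWE mice, 39 of the 43 members were higher and 4 lower than with vehicle, where 53.8% of all genes were higher, and the median log2 fold change was 0.14 against 0.03. All 7 metabotropic receptors tested, all 4 AMPA receptor genes and 17 of 18 GABA-A genes were on the higher side. The value over all genes depended on the tool. By limma-voom 63.6% of all genes were higher, with a median of 0.149, and with library weights 61.7%, with a median of 0.086. The median over the members ranged from 0.09 to 0.20 over the alternatives other than leaving out 1 library. No member passed an adjusted p of 0.05 in edgeR, as no gene did (0%), 3 had an unadjusted p below 0.05 (9.46% of all genes) and 0 one below 0.01 (2.03%), while DESeq2 and limma-voom also called 0 at the adjusted threshold. In 1 member the groups did not overlap, a pattern seen in 2.31% of all genes. Grm5 stood at 218, 220, 221 and 244 CPM with Cmpd60 and at 126, 130, 180, 216 and 247 CPM with vehicle, a log2 fold change of 0.33 (SE 0.15, adjusted p = 0.474 by edgeR), and the 2 lowest vehicle values belonged to libraries s140 and s146, which were among the 5 with few genes detected. Without those 5 the log2 fold change of Grm5 was 0.09 (SE 0.11). Another of the 3 was Gabrr3, with at most 4 counts per library. All 6 choroid plexus and all 6 oligodendrocyte markers were lower in the same comparison, the former summing to 367 to 570 CPM with Cmpd60 and 394 to 1568 CPM with vehicle. Olfactory bulb markers were higher in 5 of 5 and markers of striatal medium spiny neurons in 7 of 9, 2 of each at an unadjusted p below 0.05 in edgeR, the former summing to 105 to 160 CPM with Cmpd60 and 81.0 to 99.0 CPM with vehicle. Neuron markers went the other way from most members, with 3 of 8 higher and 5 lower, 2 of the latter at that p. Astrocyte markers were higher in 3 of 6, all 3 at that p, and lower in 3. Of all genes, 7.06% were higher and 2.41% lower at that p. Single markers were at 0 counts in few-gene and other libraries, namely Aqp1 in s140 and Doc2g in s144, s146 and s152. The part of these markers in the result was not tested. Without the 5 libraries of few genes, 37 members were higher and 6 lower (54.6% of all genes higher), and 8 members had an unadjusted p below 0.05 (10.8% of all genes), among them Gabra6, Grm4 and Grin2c. The libraries held counts for 15555 to 20277 genes in APPSWE vehicle and 16402 to 23402 in APPSWE Cmpd60. When this gene number was added to the model, the median over the members was 0.09 and 34 were higher. Over all genes the median in that model was -0.05 and 44.6% were higher. The 3 members below p 0.05 became 9 without vehicle library s142, 1 without vehicle library s146, and 6 and 5 without littermate Cmpd60 libraries s152 and s157. Of all genes, 11.8% did so without s142, 8.24% without s146 and 10.9% without s152. The share without s157 is not given here, so that count cannot be set against all genes.

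With Cmpd60 in littermates, 24 members were higher (52.8% of all genes) and 19 lower, by a median of 0.03 against 0.02 over all genes, which was 0.07 without vehicle library s151 and 0.00987 without Cmpd60 library s156. No member passed an adjusted p of 0.05 in edgeR (0% of all genes did), and 5 had an unadjusted p below 0.05, or 11.6% against 3.67% of all genes, and 1 below 0.01 (0.384% of all genes), while DESeq2 and limma-voom again called 0 members at the adjusted threshold. Grik1, a kainate subunit, was at 10.4 to 20.0 CPM with Cmpd60, and at 18.6, 19.1, 20.7 and 22.9 CPM in 4 vehicle libraries and 54.1 CPM in library s155. Its log2 fold change of -0.71 (SE 0.28, adjusted p = 0.999 by edgeR) became -0.30 without library s155 and -0.18 without the 5 libraries of few genes. Gria1, the AMPA subunit most tied to plasticity, stood at 348, 427, 444, 535 and 560 CPM with Cmpd60 and 453, 520, 548, 626 and 633 CPM with vehicle, a log2 fold change of -0.26 (SE 0.11, adjusted p = 0.999 by edgeR), which was -0.13 (SE 0.10) without the 5 libraries. Markers of striatal medium spiny neurons were lower in 9 of 9, 1 at an unadjusted p below 0.05 in edgeR, summing to 795 to 1178 CPM with Cmpd60 and 791 to 1442 CPM with vehicle, and their part in this was not tested. Gria3 was higher (0.17, SE 0.08), with an adjusted p of 0.999 by edgeR. The 5 members became 1 without vehicle library s155, 2 without s154, and 3 without vehicle library s149 or s150 or Cmpd60 library s156. Of all genes, 2.2% were below 0.05 without s155, 3.1% without s154, 4.67% without s149 and 3.19% without s150. The share without s156 is not given here, so that count cannot be set against all genes.

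**Figure D5:**
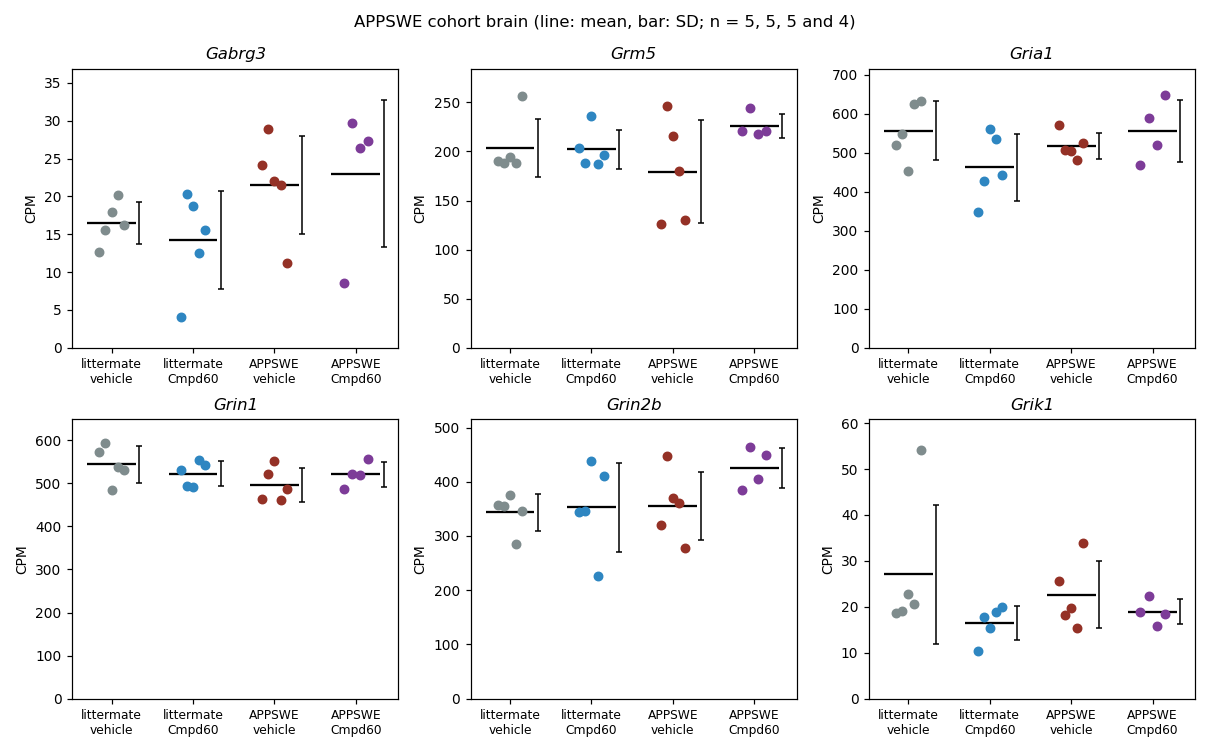
CPM of 6 receptor subunit genes in the 4 groups of the APPSWE cohort, 1 point per library, with the mean as a line and the SD as a bar (littermate vehicle n = 5, littermate Cmpd60 n = 5, APPSWE vehicle n = 5, APPSWE Cmpd60 n = 4). In Gabrg3 and Grik1 single libraries lie far from the rest of their group, and the Grik1 value of 54.1 CPM in littermate vehicle stands alone.

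Under Cmpd60, 31 members were higher (49.8% of all genes) and 12 lower in APPSWE than in littermate mice, by a median of 0.09 against -0.00117 over all genes, and edgeR called 0 members at an adjusted p of 0.05 (0% of all genes) and 1 at an unadjusted p below 0.05 (1.34% of all genes), with 0 below 0.01 (0.116%); DESeq2 and limma-voom called 0 at the adjusted threshold. That 1 was Gria1, at 468, 519, 587 and 647 CPM in APPSWE Cmpd60 against 348 to 560 CPM in littermate Cmpd60, a log2 difference of 0.26 (SE 0.12, adjusted p = 1 by edgeR). Grin2b, the NMDA subunit of forebrain, stood at 385, 405, 449 and 465 CPM against 226, 343, 346, 411 and 437 CPM (log2 difference 0.27, SE 0.14, adjusted p = 1 by edgeR), and without library s157 the log2 difference was 0.14. Gabrg3, a scarce gamma subunit, was at 8.55, 26.4, 27.3 and 29.7 CPM in APPSWE and 4.01, 12.5, 15.6, 18.7 and 20.3 CPM in littermates, a log2 difference of 0.69 (SE 0.36, adjusted p = 1 by edgeR), and the lowest value of each group came from the libraries of few genes, s141 and s152. Without s152 the log2 difference was 0.46. Without the 5 such libraries, Gabrg3 stood at 26.4, 27.3 and 29.7 CPM in APPSWE Cmpd60 and at 12.5, 15.6, 18.7 and 20.3 CPM in littermate Cmpd60. The log2 difference was 0.72 (SE 0.17) under Cmpd60 and 0.54 (SE 0.18) on vehicle. In edgeR's test the unadjusted p was 0.000426 and 0.0056 and the adjusted p 1 and 0.39. Over all genes in this setting, 0.213% and 2.4% had an unadjusted p below 0.01. On vehicle, the libraries kept held 21.6, 22.1 and 28.9 CPM of Gabrg3 in APPSWE and 12.7, 15.5, 17.9 and 20.2 CPM in littermates. This exclusion, and Gabrg3 on vehicle as a gene to name, were chosen after the data were seen. The 1 member below p 0.05 became 3 without APPSWE library s141 or littermate library s156 and 0 without APPSWE library s143 or s148. Of all genes, 0.743% did so without s141, 1.07% without s143 and 1.38% without s148. The share without s156 is not given here, so its count cannot be set against all genes.

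The difference between the Cmpd60 responses of the 2 genotypes was tested as an interaction. No member passed an adjusted p of 0.05 in edgeR (0% of all genes), 2 had an unadjusted p below 0.05 (5.09% of all genes) and 0 one below 0.01 (0.949%), and the median was 0.13 against 0.01. By limma-voom the median over all genes was 0.091, and the median over the members ranged from 0.10 to 0.15 over the alternatives other than leaving out 1 library. Gria1 was lower with Cmpd60 in littermates (-0.26) and at a log2 fold change of 0.10 in APPSWE mice, a difference of 0.37 (SE 0.16, adjusted p = 0.96 by edgeR), and 0.36 (SE 0.15) without the 5 libraries of few genes. In the same test markers of striatal medium spiny neurons (9 of 9) and olfactory bulb (5 of 5) were higher, by a median of 0.38 and 0.49 and with 2 of each at an unadjusted p below 0.05 in edgeR, and choroid plexus markers were lower (6 of 6, median -0.81, 2 at that p), and their part in the result was not tested. For Grm5 the difference was 0.34 (SE 0.20, adjusted p = 1 by edgeR), and 0.00375 (SE 0.14) without the 5 libraries, and Gabrr3, with its few counts, gives no fold. The 2 members below p 0.05 became 4 without APPSWE vehicle library s142, 0 without APPSWE Cmpd60 library s148 or littermate Cmpd60 library s152 or s153, and 1 without any of 11 others, of both vehicle and Cmpd60 groups. Of all genes, 6.41% did so without s142, 4.15% without s148, 4.53% without s152 and 4.62% without s153. The shares for the 11 others are not given here, so their count of 1 cannot be set against all genes. In the 5 lists of partner genes, 0 genes passed an adjusted p of 0.05 in any comparison of this cohort. In APPSWE mice with Cmpd60, 52 of the 67 partner genes were higher and 15 lower, with 5 higher and 1 lower at an unadjusted p below 0.05. Over all genes 53.8% were higher there, 7.06% higher and 2.41% lower at that p. By limma-voom 63.6% of all genes were higher in that comparison.

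Outside the brain, the 45 genes together summed to 54.5 to 88.0 CPM in kidney and 76.3 to 108 CPM in heart, against 5344 to 7135 CPM in the aged brain. The kidney held Gria3 (15.7 ± 3.80 CPM, SD, n = 11), Gabra3 (14.5 CPM) and Grik5 (14.5 CPM). Gabrp, with at most 1 count in any brain library, was at 0.20 to 2.12 CPM in all 11 kidneys and reached 6.61 CPM in 1 heart while 8 hearts had 0 counts.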

How the data were processed

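RNA was measured by sequencing of poly(A) libraries prepared with a directional kit, 1 library per tissue and mouse by the labels, and p-values measure the spread between these mice. The authors checked reads with FastQC, trimmed them with Trimmomatic 0.32, aligned them with HISAT2 2.1.0 and counted them per Ensembl gene with HTSeq 0.11.0, per the submitters' processing notes; the genome build is not given in the sources used here. The deposited values are raw counts, and the 5 HTSeq summary lines, 15.4% to 21.9% of each brain library, were left out. Names were matched to 32651 gene IDs, and exon lengths came from GENCODE on NCBIM37 and were used only for levels per kb.

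The brain libraries held 25052335 to 57430113 counts on genes, so a floor of 3 counts is at most 0.12 CPM; this floor covers counting error only. Counts were scaled by TMM and tested with edgeR 4.0.16 (R 4.3.3), by the quasi-likelihood test with Benjamini-Hochberg adjustment over all genes that exceeded 2 counts in 3 or more libraries, the 12 aged brain libraries on their own and the 19 assigned libraries of the APPSWE cohort in 1 model. A call was an adjusted p below 0.05; unadjusted p below 0.05 and, as in the study's tables, below 0.01 is given beside it. SE is the log2 fold change divided by the root of the F statistic. Alternatives were DESeq2 1.42.0, limma-voom (limma 3.58.1) with and without library weights, DESeq2 size factors, 2 other filters, detected genes as a covariate, library s139 in either group, only the groups compared, and each library left out. Marker covariates and the exclusion of libraries low in granule cell markers or in genes detected were added after the data were seen.

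Members named with values are those with an adjusted p below 0.05 or an unadjusted p below 0.01 in a comparison, in the aged brain also those below 0.05, in the APPSWE cohort also the 3 smallest p of each comparison, and in each family the most and least abundant; 4 members are not reported here by name. The members and the gene lists were chosen with earlier results of these data known. Promoter sequences are from RefSeq (GRCm38.p6).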

Additional observations from a re-analysis of the deposited data

Results flagged for a closer look

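Each library of the 37 combinations of a named member and a group of 4 to 10 libraries was set against the rest of its group, and 4 stood farther from their neighbours than Dixon's limit, where chance gives about 1 in 20. In the aged vehicle brain, Grin2d stood at 33.7 CPM in library 31 and at 25.7 to 27.1 CPM in the other 5. In littermate vehicle brain, Grik1 stood at 54.1 CPM in library s155 against 18.6 to 22.9 CPM in the other 4. In APPSWE Cmpd60 brain, Grm5 stood at 244 CPM in library s143 against 218 to 221 CPM in the other 3, and Gabrg3 at 8.55 CPM in library s141 against 26.4 to 29.7 CPM. Libraries s155 and s141 were among the 5 of the cohort with the fewest genes detected; the part of this in the 2 values was not tested.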

How the results depend on the processing

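Of 1442 values under the alternatives, 98 counts or medians moved, counts by over 1.5 times or from or to 0, medians by more than the spread between libraries. Of the 734 that belong to single members, 4 passed the adjusted threshold, 1 changed sign and 56 differed by over 1.5 times from the value given. In the aged brain, members past the adjusted threshold went from 0 to 3 with DESeq2 (Gabre, Gria2 and Grm4, with 429 genes in all against 5 by edgeR). With 1 library left out they ranged from 0 to 1 (Gria2, without vehicle library 29, where 372 genes passed in all). Members below p 0.01 went from 5 to 3 with detected genes as a covariate, 1 with granule cell markers as a covariate and 2 without the 3 libraries low in them, and ranged from 4 to 12 with 1 library left out. Of all genes, 4.29% were below 0.01 in the main fit and 1.92%, 2.1% and 2.37% in these settings. With 1 library left out this share ranged from 3.01% to 7.07%. Members below p 0.05 went from 13 to 4, 8 and 5 with granule cell markers or cortex markers as a covariate and without the 3 libraries, and ranged from 8 to 17. Of all genes, 13.8% were below 0.05 in the main fit and 8.43%, 10.2% and 8.67% in these settings. With 1 library left out this share ranged from 10.7% to 17.4%. Grin2c changed sign, from -0.25 to 0.016 with the granule cell covariate, which by construction takes out what moves with those markers. In the APPSWE cohort no alternative gave a member past the adjusted threshold. Over all genes, DESeq2 called 20, 22, 4, 0 and 4 genes in the 5 comparisons of the cohort, where edgeR called 2, 0, 0, 0 and 0, in the order genotype on vehicle, Cmpd60 in APPSWE, Cmpd60 in littermates, genotype under Cmpd60 and interaction. Members below p 0.01 for Cmpd60 in APPSWE mice went from 0 to 2 with limma-voom, 4 with library weights, 1 with the granule cell covariate, with library s139 as Cmpd60 or with only the groups compared, and 2 without the 5 libraries of few genes, and ranged from 0 to 3 with 1 left out. Of all genes, 2.03% did so in the main fit, 2.77% with limma-voom and 3.85% with library weights. This share was 2.26% with the granule cell covariate and 2.86% without the 5 libraries. In littermates the members below p 0.01 went from 1 to 2 with no filter and to 0 with only the groups compared or without the 5 libraries, and ranged from 0 to 2. Of all genes, 0.384% did so in the main fit, 0.609% with no filter and 0.639% without the 5 libraries. For APPSWE against littermate mice under Cmpd60 the members below p 0.01 went from 0 to 1 with limma-voom, 3 with library weights and 2 without the 5 libraries, ranging from 0 to 1, and on vehicle from 0 to 1 without the 5 libraries. Under Cmpd60, 0.116% of all genes did so in the main fit and 0.129%, 1.21% and 0.213% in these settings. On vehicle the share went from 1.74% to 2.4%. For the interaction the members below p 0.01 ranged from 0 to 1. The causes of these moves were not tested. In the cohort, the shares of all genes below p 0.01 with 1 library left out, with library s139 or with only the groups compared are not given here.

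No paired analysis was possible because no replicate numbers are shared between the groups compared. These numbers name libraries and do not match across groups. At these group sizes the APPSWE cohort, with a biological coefficient of variation of 0.73 against 0.11 in the aged brain, limits what could be detected: a member below the threshold is not shown to be equal between groups. Gabrr1, Gabrr3, Gabrp and Grm6 held too few counts for a fold.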

Other observations

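The brains of the APPSWE cohort and of the aged mice came from separate experiments on mice of different ages and possibly of different stock. The paper names both Taconic and The Jackson Laboratory as source of the aged mice, and Taconic for the APPSWE mice. Experiment, age and stock cannot be told apart, so the levels are only set side by side. Gabra2 was the only member of the 45 whose ranges did not overlap, at 105 to 191 CPM in the 19 libraries of the cohort and 49.8 to 68.5 CPM in the 12 aged libraries, a ratio of means of 2.48. For Gabra6 the means were 119 and 61.1 CPM with overlap. The library without a group, s139, held a summed 5866 CPM of the 45 genes, against 5445 to 6062 CPM in APPSWE vehicle and 5736 to 6762 CPM in APPSWE Cmpd60.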
